A study of Brassica rapa subsp. pekinensis with 6 samples.

Results

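The miR160 family was followed in small RNA libraries of germinated Chinese cabbage (Brassica rapa subsp. pekinensis) seeds. Its members were all sequences listed under a name with the family number 160, from any species of miRBase and from either arm, with each distinct mature sequence counted once and its rows added. The rule took 15 rows with 13 names, and gave 12 distinct sequences of the 889 distinct mature sequences in the table. The rule reads the names alone. The 3 Nor libraries came from germinated seeds left at room temperature for about 48 h. The 3 Ver libraries came from germinated seeds vernalized in a refrigerator at 4 °C for 25 days. Both groups were kept in the dark and were the doubled haploid line 'FT', and each library pooled the seeds of a dish. The groups therefore differed in temperature and in the length of the treatment together, and these cannot be told apart.

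In plants, miR160 is a conserved miRNA that is cut as a duplex from a hairpin precursor. The 5p strand is the one mainly loaded into an ARGONAUTE protein, and in Arabidopsis it pairs with the mRNAs of the auxin response factors ARF10, ARF16 and ARF17, which repress auxin responsive genes, and directs their cleavage. In Arabidopsis, forms of ARF10 that miR160 cannot cut make germinating seeds more sensitive to abscisic acid. The 3p strand is the partner of the duplex and is mostly degraded.

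The mature sequences are printed with bases 2 to 8, the seed, in capitals, because the members of the 5p arm differ mainly at their ends. The 7 sequences of the 5p arm, ordered by their reads, were the following.

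bra-miR160a-5p: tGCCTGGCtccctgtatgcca

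csi-miR160c-5p: tGCCTGGCtccctgtatgctt

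bna-miR160a_L+2R-1: cATGCCTGgctccctgtatgcc

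bna-miR160a_L+2R-2: cGTGCCTGgctccctgtatgc

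mtr-miR160a_R-1_1ss20CT: tGCCTGGCtccctgtatgct

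csi-miR160c-5p_R-1_1ss18GA: tGCCTGGCtccctgtatact

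mtr-miR160a_L+3R-1: aAATGCCTggctccctgtatgcc

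The prefix of a name is the species of the matched miRBase entry, L and R give bases gained or lost at the 5′ and 3′ ends, and ss gives a substitution. All these reads came from Chinese cabbage. Counted from 1 at the 5′ end, csi-miR160c-5p differed from bra-miR160a-5p by C20T and A21T. In the same way mtr-miR160a_R-1_1ss20CT carried C20T, and csi-miR160c-5p_R-1_1ss18GA carried G18A and C20T. The 3 sequences with added 5′ bases have a shifted seed, so that 4 of the 7 shared the seed GCCTGGC. Those 4 start with T, and the bna-miR160a forms start with C. In Arabidopsis the first base is known to bear on which ARGONAUTE protein takes up a small RNA.

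The 5 sequences of the 3p arm are shown because most of them match the sequence of a single precursor only, unlike bra-miR160a-5p.

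cas-miR160b-3p_L-1R+1: cGTACAGAgtagtcaagcatga

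bra-miR160a-3p: gCGTATGAggagccatgcata

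gma-miR160a-3p: gCGTATGAggagccaagcata

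ath-miR160c-3p_L+1R-1: gCGTACAAggagtcaagcatg

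bna-MIR160d-p3: tGGCGTACagagtagtcaagca

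bra-miR160a-3p and gma-miR160a-3p shared a seed and differed only by T16A. The 12 sequences had 8 distinct seeds.

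The table placed the family at 8 hairpin positions of the B. rapa v3.0 genome, of which 7 were distinct in sequence, since the hairpin on A05 was listed at starts that differ by 57 bases. bra-miR160a-5p lay without a mismatch in the hairpins of 7 of the 8 positions, although it was listed only on A05, so its reads cannot be assigned to a locus. The hairpins that carried the 3 most abundant 3p sequences are printed in transcript orientation, with the arms listed at that position in capitals.

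bra-MIR160a, A05:3412737-3412863, minus strand: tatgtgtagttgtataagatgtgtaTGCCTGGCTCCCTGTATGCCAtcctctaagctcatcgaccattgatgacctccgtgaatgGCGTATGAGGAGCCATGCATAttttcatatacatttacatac

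bna-MIR160c, A03:24132739-24132853, plus strand: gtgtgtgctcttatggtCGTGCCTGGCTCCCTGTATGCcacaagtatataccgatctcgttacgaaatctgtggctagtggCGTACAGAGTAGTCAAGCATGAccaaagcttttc

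mtr-MIR160b, A03:9827874-9827962, plus strand: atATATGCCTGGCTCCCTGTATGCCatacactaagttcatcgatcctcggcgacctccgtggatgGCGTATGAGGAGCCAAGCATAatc

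bra-miR160a-3p had an exact match only in the A05 hairpin. cas-miR160b-3p_L-1R+1 and bna-miR160a_L+2R-2 matched only the hairpin at A03:24132739, of which they are the 2 arms. gma-miR160a-3p matched exactly only the hairpin at A03:9827874, while its other row placed it on A05 with a mismatch. The capitals at the 5′ end of that A03 hairpin are where mtr-miR160a_L+3R-1 was placed, also without an exact match. The other positions were A01:4694598-4694683, A06:27403641-27403729 and A08:10889996-10890089 on the plus strand and A09:14757852-14757943 on the minus strand. The 7 positions other than A08 held a shared 5p core of 19 bases, and the A08 hairpin did not. The folding energies given in the table ran from -54.3 kcal/mol on A05 to -36.9 kcal/mol on A01. Of the 12 sequences, 8 were found exactly in a listed hairpin and 4 in none, and those 4 held 9.21% of the miR160 reads.

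The libraries held 749852 to 968483 miRNA reads in Nor and 589061 to 771529 in Ver. Values are given as reads, which are estimated counts and need not be whole, as the share of the miRNA reads of a library, or as RPM, which counts reads in each 1000000 of a TMM-scaled library total. Sequences of 18 nt that end in CCA took 5.15% to 7.14% of the miRNA reads in Nor and 1.14% to 1.45% in Ver. Their part in the results below was not tested beyond a fit that left them out. All values are relative to the other miRNAs, and in these bulk samples fewer cells with a miRNA and less of it per cell cannot be told apart.

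The miR160 family as a whole was lower in vernalized seeds. The 12 sequences together were read 9319, 6799 and 6962 times in the Nor libraries and 3256, 2632 and 2683 times in the Ver libraries. This was 0.962%, 0.905% and 0.928% of the miRNA reads in Nor and 0.422%, 0.447% and 0.448% in Ver. All Ver libraries lay below all Nor libraries, and the mean share was 0.932% ± 0.0288 (SD, n = 3) in Nor and 0.439% ± 0.0146 (SD, n = 3) in Ver. The lowest bound of a 95% Wilson interval in Nor was 0.884%, and the highest bound in Ver was 0.465%. These intervals cover counting error only. In the edgeR quasi-likelihood fit on family sums the log2 fold change of Ver against Nor was -1.01 (SE 0.0876, adjusted p = 2.23e-06), a 2.02-fold lower level. In the same fit 34.9% of the 186 features tested were called lower. Without the 18-nt sequences that end in CCA the log2 fold change of the miR160 sum was -1.19. Among 122 numbered families, miR160 ranked 17 by its reads in Nor and 22 in Ver.

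**Figure D1:**
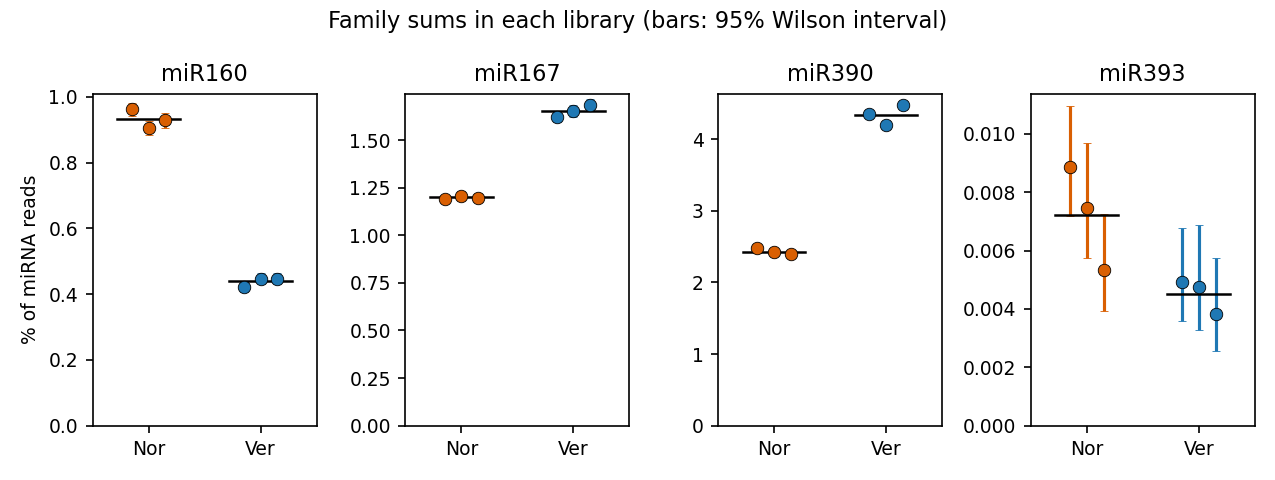
Share of the miRNA reads of each library (y axis, percent) taken by the sums of miR160, miR167, miR390 and miR393 in Nor and Ver seeds, with a scale of its own in each panel. Points are libraries, bars on points are 95% Wilson intervals and black lines are means; miR160 lies at 0.905% to 0.962% in Nor and 0.422% to 0.448% in Ver, while miR167 and miR390 are higher in Ver.

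Of the 12 sequences, 9 passed the low-count filter and were tested one by one, and 8 of the 9 were lower in Ver at an adjusted p under 0.05 by edgeR, none was higher and 1 was not called. Over the whole table, 32.8% of the 405 sequences tested were called lower and 28.1% higher, 61.0% in all. The filter kept members by their counts, and 3 members were not tested. csi-miR160c-5p_R-1_1ss18GA, counted among the 8, passed the filter only through its reads in Nor, so it could only be called lower, and 7 of the 8 others were. The median log2 fold change of the 9 was -1.19, beside -0.19 over all sequences tested. By the thresholds that the study used (fold change beyond 1 on the log2 scale in either direction, and p not above 0.05 before adjustment), 6 of the 9 were lower, where 24.0% of all sequences tested were. In 8 of the 12 the Ver libraries all lay below the Nor libraries, and in 4 the groups overlapped. These 8 were among the 9 that passed the filter, and they include csi-miR160c-5p_R-1_1ss18GA. Among the sequences that passed the filter, 40.0% had all Ver libraries below all Nor libraries, and 71.4% did not overlap in one direction or the other.

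**Figure D2:**
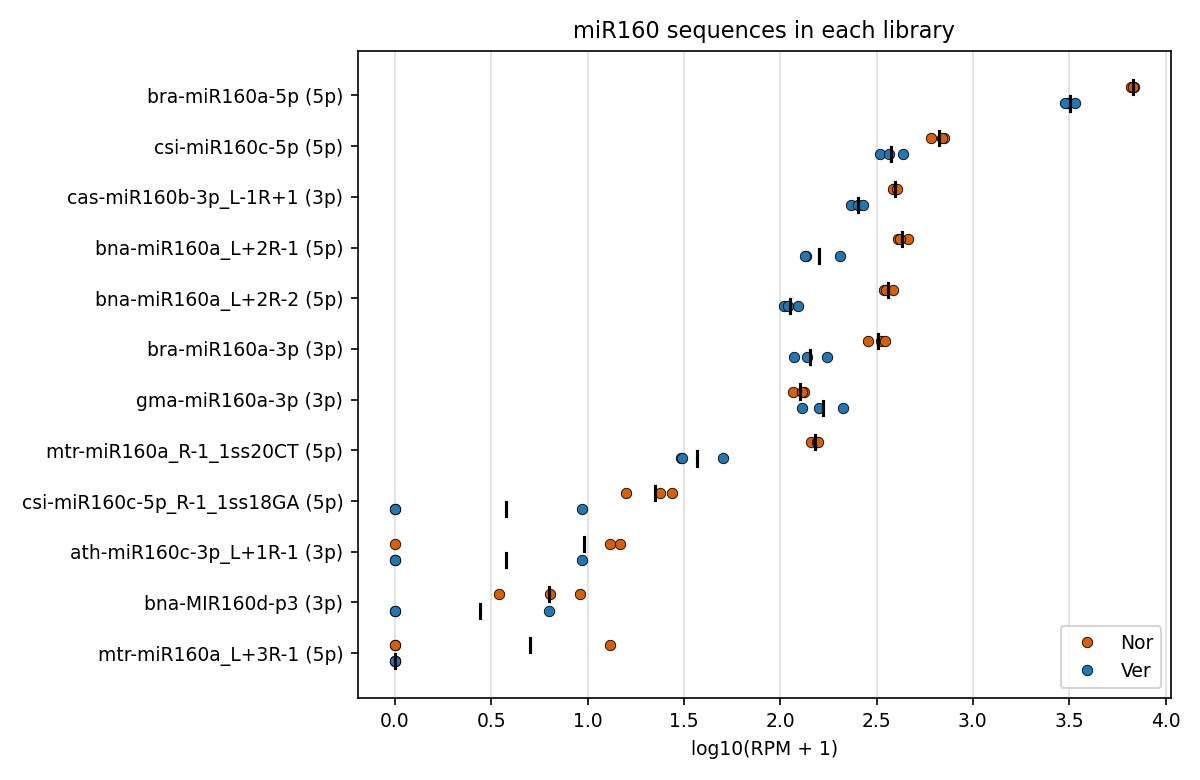
Level of each of the 12 miR160 sequences in each library on the x axis, as log10 of RPM plus 1, with the arm in brackets. Points are libraries, short black lines mark the log10 of the mean RPM plus 1 of a group, and points at 0 are listed at 0 reads. gma-miR160a-3p is the abundant member whose groups overlap, at 115 to 132 RPM in Nor against 128 to 211 RPM in Ver.

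The canonical guide strand bra-miR160a-5p carried most of the family. Its reads were 6764, 5051 and 5046 in Nor 1 to 3 and 2418, 1818 and 1934 in Ver 1 to 3. It held 73.1% of the miR160 reads in Nor and 71.8% in Ver, so that the family sum follows it. The mean level in RPM was 6764 ± 111 (SD, n = 3) in Nor against 3175 ± 199 in Ver, with no overlap of the groups. It was 2.13-fold lower in Ver (log2 change -1.09 ± 0.070 SE, edgeR, adjusted p = 1.04e-06). The fall was not limited to it, since the family sum without bra-miR160a-5p had a log2 fold change of -0.93 (edgeR adjusted p = 2.10e-05).

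The 5p forms with other 3′ ends were also lower. csi-miR160c-5p, a form that ends in TT and matched no listed hairpin exactly, was read 722, 445 and 511 times in the Nor libraries and 256, 260 and 208 times in the Ver libraries. All Ver libraries lay below all Nor libraries, and the log2 change was -0.83 ± 0.124 (SE, edgeR, adjusted p = 2.94e-04). mtr-miR160a_R-1_1ss20CT, a 20-nt form that ends in a single T, was read 146, 114 and 116 times in the Nor libraries and 23, 18 and 28 times in the Ver libraries. Its mean was 151 ± 7.09 RPM (SD, n = 3) in Nor against 36.2 ± 11.3 in Ver, with a log2 change of -2.07 ± 0.230 (SE, edgeR, adjusted p = 4.13e-05). This was the steepest fall among the miR160 sequences that had reads in every library. The sequence is also listed as csi-miR160c-5p_R-1, and the reads given here are the sum of its 2 rows.

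csi-miR160c-5p_R-1_1ss18GA, placed at the A08 hairpin that lacks the shared core, was near the limit of the table. It was read 27, 11 and 17 times in the Nor libraries and 0, 5 and 0 times in the Ver libraries. Since listed values above 0 rarely fell under 5 reads, a floor of 5 reads per library was used, and against it the sequence was at least 2.74-fold lower in Ver. Its edgeR adjusted p of 0.0241 rested on few reads, and it rose to between 0.0695 and 0.122 when any single Nor library, Ver 1 or Ver 3 was left out. Of these 6 fits, only that without Ver 2 called it, at 0.00370. With the replicate number as a block the call was lost as well (edgeR adjusted p = 0.0938).

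The 3 forms of the 5p arm that end in T made up 10.001% ± 0.694 (SD, n = 3) of the 5p reads in Nor and 10.7% ± 1.39 in Ver. These shares overlapped between the groups (exact two-sided permutation test, p = 0.6, adjusted over 2 shares 0.6). The log2 changes of the 2 that had reads in every library, however, ranged from -0.83 for csi-miR160c-5p to -2.07 for mtr-miR160a_R-1_1ss20CT.

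The 2 tested 5p forms with added 5′ bases were called lower as well. Summed over its 2 rows, bna-miR160a_L+2R-1 was read 471, 300 and 310 times in the Nor libraries and 105, 123 and 76 times in the Ver libraries. bna-miR160a_L+2R-2 was read 353, 260 and 285 times in the Nor libraries and 81, 74 and 62 times in the Ver libraries. Neither overlapped between the groups. Their log2 fold changes were -1.45 (SE 0.167, edgeR adjusted p = 5.17e-05) and -1.69 (SE 0.121, edgeR adjusted p = 2.05e-06), equal to levels 2.73-fold and 3.23-fold lower. With mtr-miR160a_L+3R-1 they made up 9.46% ± 0.348 (SD, n = 3) of the 5p reads in Nor and 7.00% ± 1.38 in Ver. All Ver libraries had the lower share, at p = 0.1 by an exact two-sided permutation test (adjusted over 2 shares 0.2), the smallest p that 3 against 3 libraries allow.

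All 5p forms other than bra-miR160a-5p, set together against it within each library, gave a log2 ratio that was lower in Ver, a difference of -0.17, with overlapping groups (exact permutation p = 0.4). It was -0.09 without Ver 1, -0.10 without Ver 3 and -0.32 without Ver 2.

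Of the 3 members of the 3p arm that were tested, 2 were called lower. cas-miR160b-3p_L-1R+1 was read 394.5, 282 and 300 times in the Nor libraries and 182, 152 and 153 times in the Ver libraries. The mean level in RPM was 391 ± 11.5 (SD, n = 3) in Nor against 252 ± 17.9 in Ver, with a log2 change of -0.64 ± 0.103 (SE, edgeR, adjusted p = 4.92e-04). It was the smallest change among the 8 sequences called. bra-miR160a-3p, the partner strand on A05, was read 291, 245 and 259 times in the Nor libraries and 91, 82 and 99 times in the Ver libraries. The mean level in RPM was 322 ± 32.9 (SD, n = 3) in Nor against 142 ± 29.2 in Ver, with a log2 change of -1.19 ± 0.162 (SE, edgeR, adjusted p = 1.67e-04). Neither sequence overlapped between the groups.

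gma-miR160a-3p, which differs from bra-miR160a-3p at 1 base, was the 1 tested member that was not called lower. Its reads were 134, 85 and 96 in Nor and 100, 95 and 120 in Ver. In RPM its levels were 132, 115 and 129 in the Nor libraries and 128, 158 and 211 in the Ver libraries, so that only Ver 1 lay within the range of Nor. The log2 change was 0.39 ± 0.195 (SE, edgeR, adjusted p = 0.106). Without Ver 1 it was 0.61 and was called higher, at an edgeR adjusted p of 0.0281, and without Ver 3 it was 0.24, at 0.231. Over all alternatives its adjusted p ran from 0.0281 to 0.231.

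**Figure D3:**
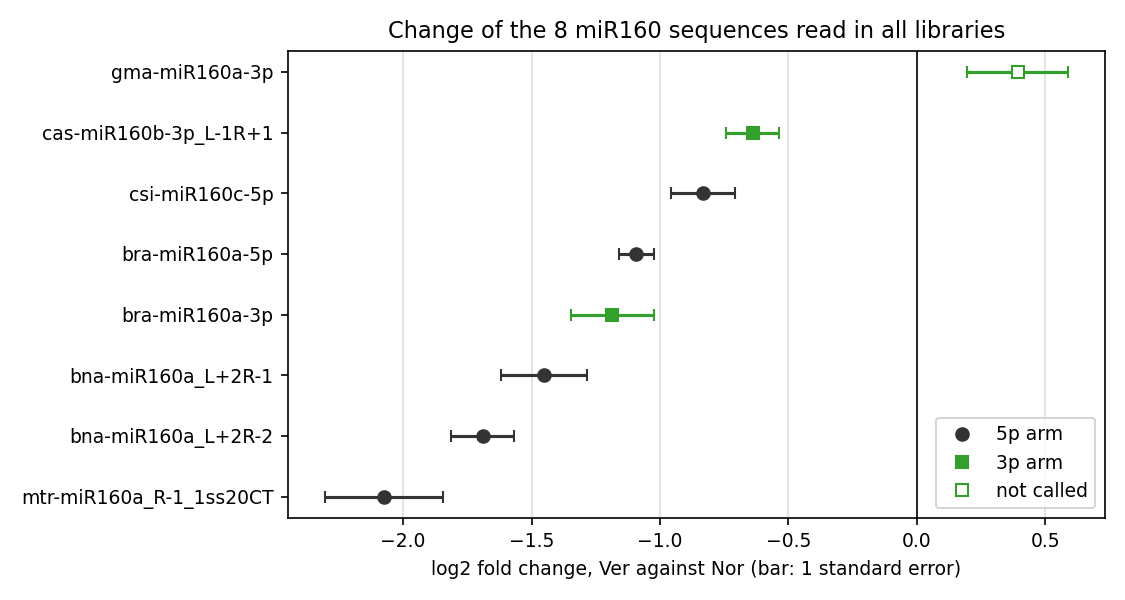
Log2 fold change of Ver against Nor (x axis) for the 8 miR160 sequences with reads in all 6 libraries, with bars of 1 standard error. Round points are the 5p arm, squares the 3p arm, and the open square is gma-miR160a-3p, which was not called; the other 7 lie between -2.07 and -0.64.

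The 3 remaining sequences had too few reads to be tested. ath-miR160c-3p_L+1R-1, the 3p strand of the A06 hairpin, was read 14, 0 and 9 times in the Nor libraries and 0, 5 and 0 times in the Ver libraries. bna-MIR160d-p3, found in the hairpins on A01 and at A03:24132739, was read 2.5, 6 and 4 times in the Nor libraries and 0, 0 and 3 times in the Ver libraries. mtr-miR160a_L+3R-1 had 9 reads in Nor 3 and was listed at 0 in the other 5 libraries. These values are at or near the floor of the table, and a difference was not detectable at this depth. In a fit without the filter their edgeR adjusted p were 0.498, 0.577 and 0.267.

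Ratios of sequences within a library do not depend on how the libraries are scaled. The 3p arm made up 9.22% ± 0.331 (SD, n = 3) of the miR160 reads in Nor and 12.7% ± 1.26 in Ver. The log2 ratio of the 3p to the 5p arm was -3.34, -3.32 and -3.24 in Nor and -2.95, -2.78 and -2.62 in Ver. Every Ver library had a higher ratio than every Nor library, and the means differed by 0.52 (exact two-sided permutation p = 0.1, the smallest possible). This difference was 0.39 with the value of each sequence as listed on 1 row, which leaves out the values on its other rows. It was 0.25 when gma-miR160a-3p was left out, an alternative chosen after the data were seen.

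A set of 4 further ratios was also chosen after the values were seen, to set precursors beside each other. The log2 ratio of gma-miR160a-3p to bra-miR160a-3p was -1.12, -1.52 and -1.43 in Nor and 0.14, 0.21 and 0.28 in Ver. In Nor bra-miR160a-3p was the more abundant of these near-identical strands in every library. In Ver gma-miR160a-3p was ahead when its 2 rows, which hold equal values, were added. Rows of 42.5 in Nor 2 and 47.5 in Ver 2 add to whole counts of 85 and 95, as counts divided over the rows would. Taken as listed on 1 row, at 67, 42.5 and 48 reads in Nor and 50, 47.5 and 60 in Ver, it stayed below bra-miR160a-3p in all 6 libraries. The difference of the log2 ratio between the groups was 1.56 either way. How reads were assigned between sequences this alike is not given in the sources used here, so the split between these strands is uncertain.

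The log2 ratio of gma-miR160a-3p to cas-miR160b-3p_L-1R+1 was higher in Ver by 1.01. That of bra-miR160a-3p to cas-miR160b-3p_L-1R+1 changed by -0.55. Between the 2 arms of the hairpin at A03:24132739, the log2 ratio of cas-miR160b-3p_L-1R+1 to bna-miR160a_L+2R-2 was 0.16, 0.12 and 0.07 in Nor and 1.16, 1.03 and 1.30 in Ver. These arms were thus near equal in Nor, and the 3p strand was the more abundant in Ver, a difference of 1.05. bra-miR160a-5p reads from this hairpin could not be counted here, so this is not the ratio of all its 5p reads. In each of the 4 ratios the groups did not overlap, and each exact two-sided permutation p was 0.1 (0.1 when adjusted over the 4), the smallest possible.

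**Figure D4:**
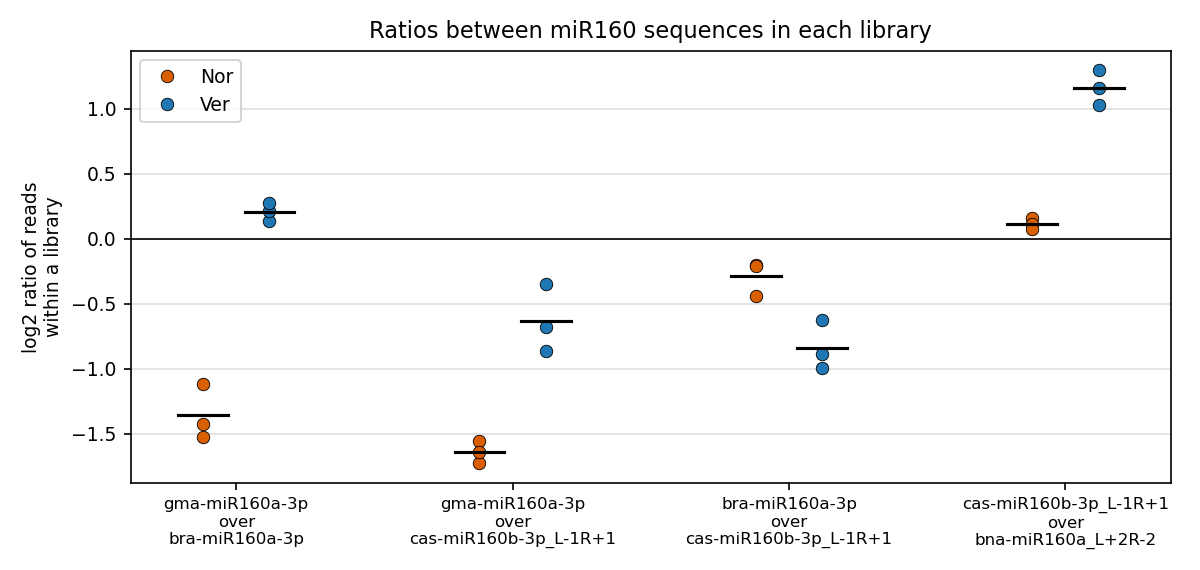
Log2 ratio of the reads of 2 miR160 sequences within each library (y axis) for the 4 pairs chosen after the values were seen. Points are libraries and black lines are means; the first pair lies at -1.52 to -1.12 in Nor and 0.14 to 0.28 in Ver.

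Other miRNA families act on auxin signalling too. In Arabidopsis, miR167 acts on the activating factors ARF6 and ARF8, miR390 triggers small RNAs from TAS3 transcripts that act on ARF2, ARF3 and ARF4, and miR393 acts on the auxin receptors TIR1 and AFB. The list was chosen with earlier results of these data known. As sums, miR167 and miR390 were higher in Ver, by log2 fold changes of 0.54 (SE 0.0876, edgeR adjusted p = 2.81e-04) and 0.91 (SE 0.0829, edgeR adjusted p = 2.64e-06). With the value of each sequence as listed on 1 row, the miR167 sum changed by 0.23 (edgeR adjusted p = 0.00596). The family table had 62.4% of its features called in either direction. miR393 was read 86, 56 and 40 times in the Nor libraries and 38, 28 and 23 times in the Ver libraries, with a log2 change of -0.60 ± 0.250 (SE, edgeR, adjusted p = 0.0544), which was not called. It was called lower with library totals only (0.0402), with at least 10 counts in every library (0.0260), without the CCA-ending sequences (0.0126) and without Nor 3 (-0.84, 0.0144), all by edgeR adjusted p.

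Set against miR167 within a library, the miR160 sum was lower in each Ver library than in any Nor library. Its log2 ratio to the miR167 sum was -0.31, -0.41 and -0.37 in Nor and -1.94, -1.89 and -1.91 in Ver, a difference of -1.55. For the ratio to the miR390 sum the difference was -1.92. Both differences had an exact two-sided permutation p of 0.1, the smallest possible (0.15 adjusted over 3 ratios), with no overlap of the groups. The ratio to the miR393 sum differed by -0.44, with overlapping groups (exact permutation p = 0.2, adjusted 0.2), and it was 0.27 when the most abundant sequence of each family was compared instead.

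Sequence by sequence these families were mixed. Of the 25 distinct sequences of the 3 families, 21 were tested, of which 5 were higher in Ver, 10 lower and 6 not called, with a median log2 fold change of -0.56. Over all sequences tested these were 28.1% higher and 32.8% lower, with a median of -0.19. In miR167, 7 of 12 were lower and 2 higher, in miR390 2 of 7 tested were lower and 3 higher, and in miR393 1 of 2 was lower. The most abundant miR167 sequence was the 3p strand bra-MIR167d-p3, read 4559, 3512 and 3616 times in the Nor libraries and 6837, 5596 and 5731 times in the Ver libraries (log2 change 0.996, edgeR, adjusted p = 2.52e-06). The most abundant miR390 sequence was the guide strand bra-miR390-5p, at 21299 ± 452 RPM (SD, n = 3) in Nor against 35077 ± 2909 in Ver (log2 change 0.72, edgeR, adjusted p = 1.40e-05). ath-miR393a-5p, the most abundant of miR393, was read 51, 39 and 25 times in the Nor libraries and 16, 13 and 6 times in the Ver libraries. Its log2 fold change was -1.36 (edgeR adjusted p = 0.0110), and the call was lost without Nor 1 (0.0762) or without Nor 2 (0.0781).

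The sequences outside the family whose pattern was most like that of bra-miR160a-5p were found by the distance between log2 RPM values over the 6 libraries, each centred on its mean, among 396 sequences with a median distance of 1.90. The nearest was bra-miR161-5p at 0.105, read 2128, 1574 and 1701 times in the Nor libraries and 755, 578 and 594 times in the Ver libraries. It was followed by ath-miR827_2ss20CT21TA at 0.269, bna-miR171f_1ss14CT at 0.300, and bra-MIR5726-p3_1ss20GA and aly-miR167c-5p at 0.332 each. All 5 were lower in Ver, which their nearness to a sequence that fell entails. The members of the family were farther off, with bra-miR160a-3p at 0.383, csi-miR160c-5p at 0.511, cas-miR160b-3p_L-1R+1 at 0.573 and the bna-miR160a forms at 0.765 and 0.775. Beyond these lay mtr-miR160a_R-1_1ss20CT at 1.30, gma-miR160a-3p at 1.85 and csi-miR160c-5p_R-1_1ss18GA, which had few reads, at 4.39. Less abundant sequences have more counting error, which enters this distance.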

How the data were processed

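Small RNA of 3 Nor and 3 Ver libraries was sequenced from TruSeq libraries, and the labels gave the group and the number of each library. The authors removed reads of common RNA families and matched the remaining sequences by BLAST to miRBase and the B. rapa v3.0 genome. The deposited raw values are estimated counts, of which 65.1% of the nonzero ones are whole, so they were added over the rows of a sequence and rounded. The authors also deposited normalized values, a signal made with 1 factor per library (0.606 to 1.222), which was used only in alternatives. Other numbers read from the deposited table are the folding energy of each hairpin. Of 2407 nonzero values of sequences on 1 row, 145 were under 5 and 233 were 5, hence the floor of 5 reads per library.

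The 405 sequences that passed filterByExpr were tested with the edgeR 4.0.16 quasi-likelihood test in R 4.3.3 (TMM, group as the only term, Benjamini-Hochberg adjustment over all tested, calls under 0.05). Family sums were tested in the same way in a table of 516 features. Each SE was derived as the absolute log2 fold change divided by the square root of the F statistic of this test. Log2 ratios used a pseudocount of 0.5 reads and exact permutation tests. The biological coefficient of variation was 0.146. Replicates are the dishes of seeds named by the study. Replicates of a group differed by more than counting error. The fit was tested on simulated data with a common spread set below that of these data, and the outcome is not given here. All miR160 sequences are named, with the 5 most similar sequences and the most abundant one of each auxin family. The family, and so its members, the lists and the tests were chosen with earlier results of these data known, although the rule for members reads names only. Alternatives were other scalings, filters, tools (DESeq2 1.42.0, limma 3.58.1), a replicate block and leaving out each library. No genome sequence or annotation of this build was used, and mRNA targets were not analysed here.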

Additional observations from a re-analysis of the deposited data

How the results depend on the processing

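The miR160 sum stayed lower in Ver under all alternatives run, with log2 fold changes from -1.19 to -0.78, and from -1.15 to -0.89 when each library was left out. Between 7 and 8 miR160 sequences were called under these alternatives, and 6 by the thresholds of the study. All of them were called lower, except that without Ver 1 the 8 called were 7 lower and 1 higher, gma-miR160a-3p. The miR393 sum, not called at -0.60, was called lower with library totals only (-0.68, edgeR adjusted p = 0.0402), with at least 10 counts in every library (-0.71, 0.0260) and without the 18-nt sequences that end in CCA (-0.78, 0.0126). It ran from -0.84 to -0.45 when each library was left out, and was called without Nor 3 (-0.84, 0.0144). The miR167 and miR390 sums, at 0.54 and 0.91, do not reach the fold threshold of the study. The log2 ratio of miR160 to miR393 turned from -0.44 to 0.27 when the most abundant sequence of each was used, and was -0.71 with values as listed on 1 row, an alternative chosen after seeing the data. Values as listed on 1 row, which leave out the other rows of a sequence, gave 0.23 for the miR167 sum. The cause of these changes was not tested. csi-miR160c-5p_R-1_1ss18GA was not called without a filter (0.109) and had no value with at least 10 counts in every library. Fitting the authors' normalized values with limma in place of edgeR moved the median log2 fold change of all sequences from -0.19 to -0.10, a change of scaling and tool together. Same-numbered libraries did not deviate together (r = 0.14, -0.06 and 0.03), and with the replicate block 204 sequences were called in place of 247 and 7 miR160 sequences in place of 8 (csi-miR160c-5p_R-1_1ss18GA was lost), with the miR160 sum at -1.01 (edgeR adjusted p = 8.09e-04). Of all results and alternatives compared, 443 were held the same and 23 were not. Fold changes were judged by direction and side of the threshold, and ratios by direction alone. Counts of called sequences were judged by whether they stayed within a set factor of the main count. Sequences under about 5 reads cannot be compared at this depth.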

Other observations

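The arms of the other auxin families, summed after the values were seen, were as follows. The 7 sequences of the miR167 5p arm took 0.641% ± 0.0108 (SD, n = 3) of the miRNA reads in Nor and 0.689% ± 0.0143 in Ver, and the 5 of its 3p arm took 0.557% ± 0.00421 and 0.964% ± 0.0370. The 4 sequences of the miR390 5p arm took 2.16% ± 0.0387 in Nor and 3.49% ± 0.149 in Ver, and the 4 of its 3p arm took 0.275% ± 0.00271 and 0.855% ± 0.0159. Ver was higher in each library of these 4 sums. miR393 had few reads. The 3 sequences of its 5p arm took 0.00477% ± 0.00128 in Nor and 0.00176% ± 0.000661 in Ver, lower in each Ver library. The 2 of its 3p arm took 0.00245% ± 0.000573 and 0.00274% ± 0.000172, with overlapping groups. The corresponding shares of miR160 were 0.846% ± 0.0273 and 0.383% ± 0.00843 for the 5p arm and 0.0859% ± 0.00344 and 0.0559% ± 0.00715 for the 3p arm, lower in each Ver library. In miR167, miR390 and miR160 the ratio of Ver to Nor was the larger for the 3p arm. It was 1.73 beside 1.07 in miR167, 3.10 beside 1.62 in miR390 and 0.651 beside 0.453 in miR160. For miR393 it was 1.12 beside 0.369, on few reads. These differences between the arms were not tested for miR167, miR390 and miR393.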
